A study of Mus musculus with 4 samples.

Results

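H3K4me3 domains that were a single peak in one genotype and several separate peaks in the other were described here, with the 2 directions kept apart. A domain was called split in knockout where 1 wild-type peak was overlapped, by at least 1 bp, by 2 or more Sun-/- peaks, and split in wild type where 1 Sun-/- peak was overlapped by 2 or more wild-type peaks. Of 59903 H3K4me3 peaks in all, 28505 in Sun-/- and 31398 in wild type, 635 were split in knockout and 363 were split in wild type, 998 domains together. The members were selected on the measured peak positions of these same libraries, so the numbers of pieces and the shares of peaks that were split are descriptions and were not tested.

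The samples were peritoneal macrophages, elicited with thioglycollate and cultured in dishes, from Sun-/- and from wild-type C57BL/6 mice of 8 weeks. The labels do not say which Sun gene was deleted, nor how many mice gave cells to a library. Chromatin immunoprecipitation sequencing was done with an antibody to H3K4me3 and one to H3K9me3, with 1 library per mark and genotype and so 4 in all. As each group was 1 library, differences between the genotypes have no replicate spread to be set against, and no p-value is given. An H3K4me3 peak stood at an end of all 8 of 8 macrophage marker genes, in Sun-/- and in wild type.

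H3K4me3 is trimethylation of lysine on the tail of histone H3, placed mainly by the SET1 and MLL complexes, and it marks active and poised promoters. It sits on the nucleosomes that flank a transcription start site, while the stretch just upstream of an active start is usually low in nucleosomes. Where 2 genes start back to back from one promoter, both flanks carry the mark. H3K9me3 marks heterochromatin and silenced repeats. SUN proteins span the inner nuclear membrane and form, with nesprins, the bridge that ties the nucleus to the cytoskeleton.

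The H3K4me3 libraries held 26748289 tags after duplicate removal in Sun-/- and 29681491 in wild type, and 14% of them in Sun-/- and 17.8% in wild type fell within peaks. The caller's fragment size was 149 bp in Sun-/- and 142 bp in wild type, and the tags were 49 bp long in Sun-/- and 50 bp in wild type. The part of these differences in the number of split domains was not tested.

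Promoter sequences show where the gaps lay. The 8 promoters below were chosen because the whole gap lay within the printed window, so its place near the start is part of the choice. The first 4 are from domains split in knockout. They are Fhod1, a formin that assembles actin filaments, Acap3, a GTPase-activating protein for Arf6, Arf1, a small GTPase of Golgi transport, and H2az1, the histone variant H2A.Z. Each line runs 5′ to 3′ on the gene's strand, from 250 bases before to 50 bases after the start site (RefSeq, GRCm38.p6, the assembly of mm10), with the gap between the Sun-/- peaks in capitals. The windows are chr8:105347921-105348220 on the minus strand for Fhod1, chr4:155891625-155891924 on the plus strand for Acap3, chr11:59228218-59228517 on the minus strand for Arf1 and chr3:137864237-137864536 on the plus strand for H2az1.
Fhod1: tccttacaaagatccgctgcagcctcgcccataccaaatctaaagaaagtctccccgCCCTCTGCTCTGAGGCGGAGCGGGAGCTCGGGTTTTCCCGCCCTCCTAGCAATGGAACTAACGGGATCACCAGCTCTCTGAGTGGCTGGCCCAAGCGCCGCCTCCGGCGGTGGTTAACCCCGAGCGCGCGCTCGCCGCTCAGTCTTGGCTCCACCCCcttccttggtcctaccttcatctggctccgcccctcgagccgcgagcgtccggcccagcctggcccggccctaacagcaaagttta
Acap3: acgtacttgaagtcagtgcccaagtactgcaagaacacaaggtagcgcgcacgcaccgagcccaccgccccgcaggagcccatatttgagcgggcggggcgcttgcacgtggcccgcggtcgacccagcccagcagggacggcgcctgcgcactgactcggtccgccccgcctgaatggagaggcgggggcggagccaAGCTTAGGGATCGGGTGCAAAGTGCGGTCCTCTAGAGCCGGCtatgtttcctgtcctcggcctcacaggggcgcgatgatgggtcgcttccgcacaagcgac
Arf1: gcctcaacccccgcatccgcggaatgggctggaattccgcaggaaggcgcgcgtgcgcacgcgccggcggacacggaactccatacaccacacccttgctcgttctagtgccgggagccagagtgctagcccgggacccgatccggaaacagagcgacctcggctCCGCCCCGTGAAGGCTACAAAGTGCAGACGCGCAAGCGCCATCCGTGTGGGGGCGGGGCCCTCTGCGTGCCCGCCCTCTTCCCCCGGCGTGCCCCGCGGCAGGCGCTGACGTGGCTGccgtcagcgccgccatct
H2az1: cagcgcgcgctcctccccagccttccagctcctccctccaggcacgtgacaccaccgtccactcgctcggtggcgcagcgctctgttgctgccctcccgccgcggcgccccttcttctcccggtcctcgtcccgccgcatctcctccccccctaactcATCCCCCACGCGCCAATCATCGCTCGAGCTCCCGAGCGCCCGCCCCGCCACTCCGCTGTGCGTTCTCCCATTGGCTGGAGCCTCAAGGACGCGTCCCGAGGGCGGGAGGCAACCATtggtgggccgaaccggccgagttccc
The gap ran from -193 to -37 at Fhod1, from -52 to -11 at Acap3, from -85 to 31 at Arf1 and from -92 to 23 at H2az1, counted in bases from the start site.

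A further 4 promoters are from domains split in wild type, with the gap between the wild-type peaks in capitals. They are Irs2, an adaptor of the insulin receptor, Git2, a GTPase-activating protein for Arf proteins at focal adhesions, H3f3a, which encodes the histone variant H3.3, and Per1, a repressor of the circadian clock. The windows are chr8:11008880-11009179 on the minus strand for Irs2, chr5:114773443-114773742 on the minus strand for Git2, chr1:180813556-180813855 on the minus strand for H3f3a and chr11:69098699-69098998 on the plus strand for Per1.
Irs2: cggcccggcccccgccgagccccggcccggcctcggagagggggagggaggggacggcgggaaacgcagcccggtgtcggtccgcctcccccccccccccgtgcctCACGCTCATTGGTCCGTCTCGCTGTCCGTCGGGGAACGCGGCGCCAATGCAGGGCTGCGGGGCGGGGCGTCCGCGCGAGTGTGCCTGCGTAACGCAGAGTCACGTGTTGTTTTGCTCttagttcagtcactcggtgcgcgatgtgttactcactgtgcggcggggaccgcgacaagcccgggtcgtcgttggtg
Git2: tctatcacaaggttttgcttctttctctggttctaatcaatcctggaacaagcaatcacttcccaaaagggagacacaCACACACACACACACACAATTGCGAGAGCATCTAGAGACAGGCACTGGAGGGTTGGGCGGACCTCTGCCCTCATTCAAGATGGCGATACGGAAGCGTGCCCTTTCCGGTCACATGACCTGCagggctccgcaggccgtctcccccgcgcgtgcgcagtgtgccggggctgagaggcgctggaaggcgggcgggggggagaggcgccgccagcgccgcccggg
H3f3a: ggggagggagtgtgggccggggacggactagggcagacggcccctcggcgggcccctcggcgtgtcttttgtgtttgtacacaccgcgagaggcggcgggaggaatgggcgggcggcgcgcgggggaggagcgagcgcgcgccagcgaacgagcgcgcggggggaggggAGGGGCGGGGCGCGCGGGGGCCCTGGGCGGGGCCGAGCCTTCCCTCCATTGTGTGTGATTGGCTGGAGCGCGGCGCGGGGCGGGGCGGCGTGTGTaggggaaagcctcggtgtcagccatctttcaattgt
Per1: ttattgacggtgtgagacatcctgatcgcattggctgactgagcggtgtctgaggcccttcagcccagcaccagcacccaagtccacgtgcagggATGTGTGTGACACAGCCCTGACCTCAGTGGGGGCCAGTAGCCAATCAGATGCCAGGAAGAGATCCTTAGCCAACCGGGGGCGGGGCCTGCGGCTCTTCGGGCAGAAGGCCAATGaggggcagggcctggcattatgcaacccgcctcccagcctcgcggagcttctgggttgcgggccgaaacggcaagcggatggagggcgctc
The gap ran from -144 to -28 at Irs2, from -172 to -52 at Git2, from -81 to 13 at H3f3a and from -155 to -42 at Per1. At Arf1, H2az1 and H3f3a the gap covered the start itself.

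Splitting was uncommon in either direction, and it was more frequent in knockout. Of 22585 wild-type peaks with a partner in Sun-/-, 635 were split in knockout, which is 2.81% (95% Clopper-Pearson interval 2.60 to 3.04%). Of 22867 Sun-/- peaks with a partner in wild type, 363 were split in wild type, which is 1.59% (1.43 to 1.76%). These intervals cover counting error only, and the 2 lists differ in depth and in enrichment. Nearly all members had 2 pieces, and 3 pieces were found in 12 domains split in knockout and in 2 split in wild type.

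Split domains were broad, which the rule favours, as a peak must reach across a gap to meet 2 peaks. The undivided peak had a median width of 2104 bp and 266 tags for domains split in knockout, and 1668 bp and 152 tags for domains split in wild type. At the threshold of the rule, the 623 wild-type peaks with 2 Sun-/- pieces had a median width of 2082 bp, and the 21950 with 1 Sun-/- partner had 1289 bp. The 361 Sun-/- peaks with 2 wild-type pieces had a median width of 1664 bp, and the 22504 with 1 wild-type partner had 1158 bp.

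The share split in knockout climbed with the width of the wild-type peak. It was 0.476% up to 1000 bp, 1.47% over 1000 and up to 1500 bp, 4.03% (3.44 to 4.70%) over 1500 and up to 2000 bp, 5.38% up to 2500 bp, 6.99% up to 3000 bp, 7.24% up to 4000 bp and 10.3% (7.87 to 13.2%) above that. The share split in wild type levelled off. Over the same classes of Sun-/- peaks it was 0.594%, 1.67%, 2.00% (1.56 to 2.51%), 2.97%, 3.75%, 3.80% and 2.92% (1.47 to 5.16%). Over 1500 bp the share split in knockout was above the share split in wild type in every class, and up to 1500 bp it was slightly below. The widths are those of the wild-type list in one direction and of the Sun-/- list in the other. As the rule favours wide peaks, the rise with width is a description.

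**Figure D1:**
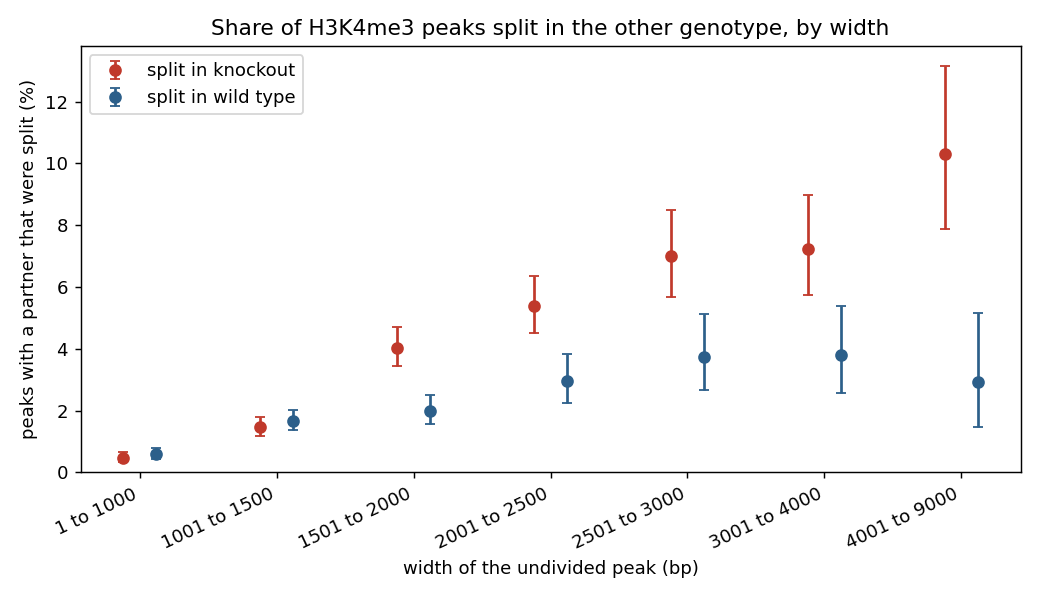
Share of H3K4me3 peaks with a partner that were split (percent, y axis) by the width of the undivided peak (bp, x axis), with exact 95% intervals for counting error. Above 4000 bp, 10.3% were split in knockout and 2.92% were split in wild type.

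Split domains also held fewer tags per kb than undivided peaks of like width. In 6 of 7 width classes in each direction the median was lower for split domains. Between 1500 and 2000 bp it was 117 tags per kb in domains split in knockout, against 146 in the other wild-type peaks, and 86.5 tags per kb in domains split in wild type, against 118 in the other Sun-/- peaks. The rule used peak calls from the same libraries, so this too is a description.

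The gaps were narrow. The widest gap of a domain had a median of 82 bp (quartiles 40 and 126 bp) in domains split in knockout and 57 bp (21 and 102.5 bp) in domains split in wild type. It was no wider than the fragment size of the split library in 514 of 635 domains split in knockout (80.9%) and in 316 of 363 split in wild type (87.1%). Gaps of 500 bp or more were found in 19 domains split in knockout and in 8 split in wild type. If peaks of one list under 500 bp apart were joined before the comparison, 84 domains split in knockout and 35 split in wild type were left.

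**Figure D2:**
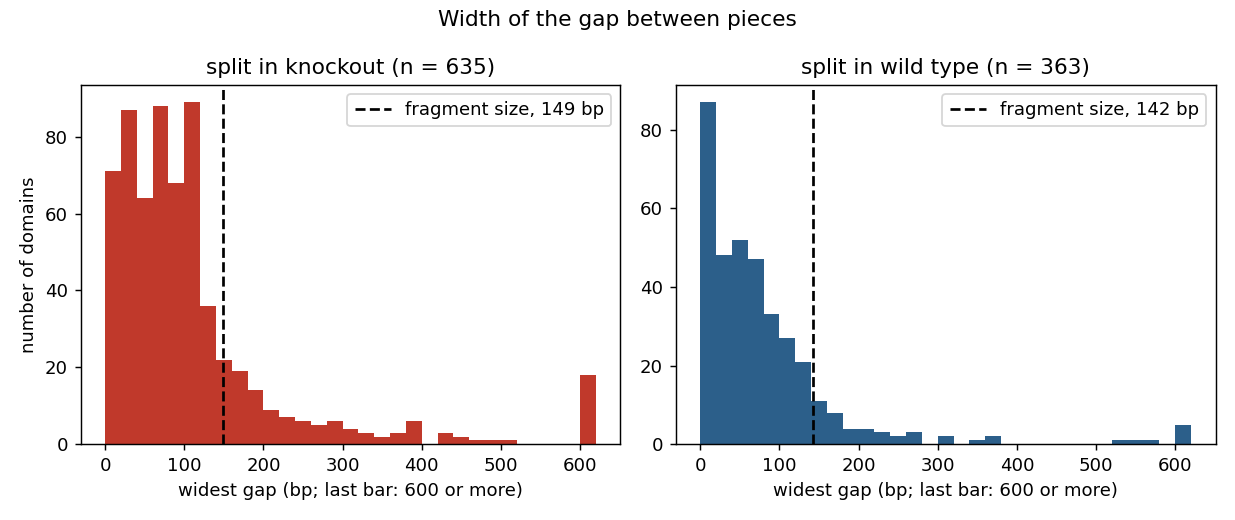
Number of domains (y axis) by the widest gap between pieces (bp, x axis, 20 bp bars), for domains split in knockout (left, n = 635) and split in wild type (right, n = 363); the dashed line is the caller's fragment size. Most gaps lie left of that line, with medians of 82 bp and 57 bp.

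The pieces were unequal. The strongest piece held a median of 64.1% of the tags of all pieces in domains split in knockout and 63.0% in domains split in wild type. The weakest piece had a median of 62 tags in domains split in knockout and 75 in domains split in wild type. All pieces reached a caller score of 100, the authors' value of -10 times log10 of p, in 219 domains split in knockout (34.5%) and 145 split in wild type (39.9%). The gap centre, as a percentage of the width in genome coordinates, had quartiles of 39.6 and 60.1% in domains split in knockout and 35.5 and 59.0% in domains split in wild type, and ranged nearly from edge to edge. The summit of the undivided peak fell in the strongest piece in 457 (72.0%) of the domains split in knockout and in 256 (70.5%) of those split in wild type, and in the gap in 3 split in knockout and 2 split in wild type.

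The same stretches often had a gap in both genotypes. Of 1635 neighbouring Sun-/- peaks at most 500 bp apart, 628 pairs (38.4%) were bridged by a wild-type peak, and 791 (48.4%) had a gap between their wild-type partners too. Of 2026 such pairs in wild type, 357 (17.6%) were bridged by a Sun-/- peak and 828 (40.9%) had a gap in both genotypes. Bridging depended on the gap. Sun-/- pairs 1 to 50 bp apart were bridged in 73.7% of cases, pairs over 100 and up to 150 bp apart in 34.9% and pairs over 500 and up to 1000 bp apart in 5.06%. Wild-type pairs were bridged in 39.6%, 12.9% and 2.55% of cases at these distances. All these shares count pairs that could not be bridged, as a peak of the pair had no partner in the other genotype. Among pairs at most 500 bp apart, only 1 peak had a partner in 173 Sun-/- pairs and 663 wild-type pairs. Neither peak had one in 43 Sun-/- pairs and 178 wild-type pairs. The shares of the Sun-/- and wild-type lists are thus not on the same footing, and no difference between genotypes is read from them.

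Gaps often lay near start sites. Start sites on chromosome 18 were not analysed here, which left 616 domains split in knockout and 356 split in wild type. A start site lay in 412 of them split in knockout (66.9%), against 46.4% of the other wild-type peaks with a partner. A start site lay in 196 split in wild type (55.1%), against 44.4% of the other Sun-/- peaks. Split domains were broader than the other peaks, and this share was not compared at like width. The centre of the widest gap was downstream of the nearest start in 38.8% of the 412 domains and in 32.7% of the 196, and over 500 bp downstream in 21.4% of the 412 and 18.9% of the 196. Among the gaps of at most 500 bp in the Sun-/- list that wild type bridged, 420 had a start site, and 69.0% of these had their centre within 300 bp of it, at a median of -33 bp. Of 350 in the wild-type list that Sun-/- bridged, 207 had a start site. Of these 207, 133 (64.3%) were within 300 bp of it, and the median was -29.5 bp. Gaps present in both genotypes were more often near a start site. Of 773, 613 had a start site, and 85.6% of the 613 were within 300 bp of it. They lay a little further upstream, with a median of -70.5 bp (quartiles -121 and -22.5 bp) at Sun-/- coordinates. No chance level was taken for these distances, and gaps mostly lay towards the middle of a domain.

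**Figure D3:**
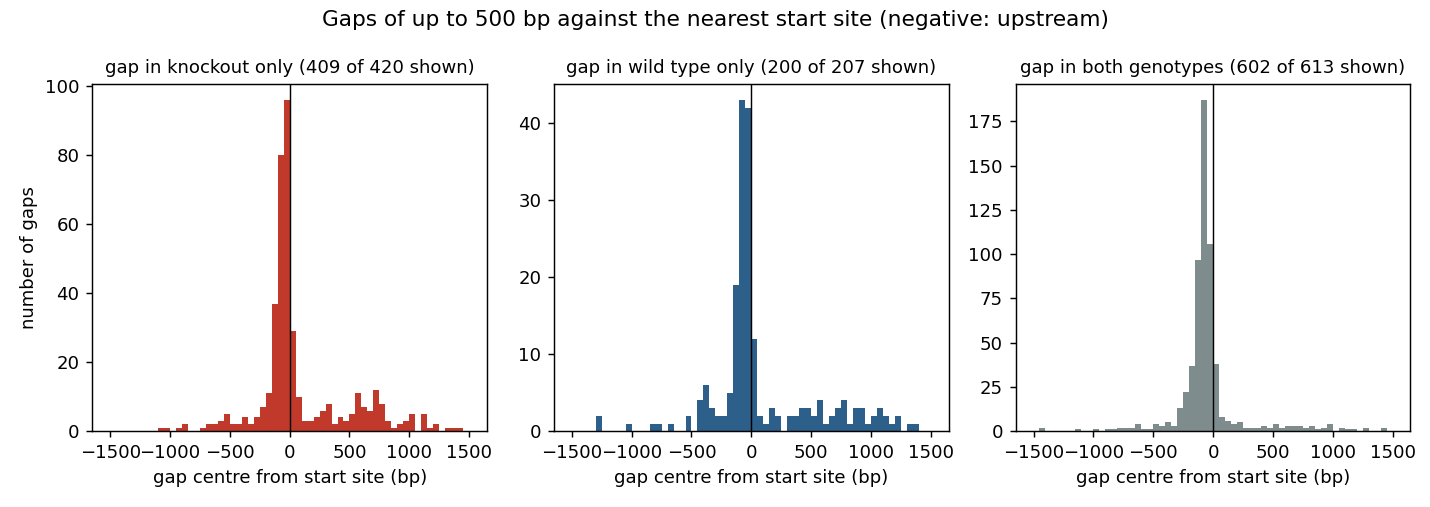
Distance of the gap centre from the nearest start site (bp, x axis, negative upstream) for gaps of at most 500 bp, by whether the other genotype bridged the gap or had a gap too. The bridged gaps have medians of -33 bp (split in knockout) and -29.5 bp (split in wild type), and gaps in both genotypes a median of -70.5 bp at Sun-/- coordinates.

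Start sites on both strands were frequent in domains split in knockout. They were found in 128 of 616 (20.8%, 17.6 to 24.2%), against 5.81% of the other wild-type peaks with a partner, and in domains split in wild type in 40 of 356 (11.2%, 8.15 to 15.0%), against 5.45% of the other Sun-/- peaks. Broad peaks hold more start sites, so the shares were also taken by width. For domains split in knockout the share was above that of the other peaks in 7 of 7 width classes, for example 23.6% against 11.5% between 2000 and 2500 bp and 32.7% against 14.6% above 4000 bp. For domains split in wild type it was above in 4 of 7 classes and below in 3. The difference between the directions was not tested. Gaps of at most 500 bp present in both genotypes lay at such promoters more often than the bridged ones. In the Sun-/- list 34.8% of the gaps in both genotypes and 21.0% of the bridged gaps did so, and in the wild-type list 35.0% and 14.6%.

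An end of a coding gene lay within 1000 bp of 470 domains split in knockout (74.0%), against 56.4% of the other wild-type peaks with a partner, and of 217 split in wild type (59.8%), against 56.8% of the other Sun-/- peaks. At like width the share was above that of the other peaks in 5 of 7 classes for domains split in knockout and in 2 of 7 for domains split in wild type.

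Most of the start pairs on both strands pointed away from each other. They did so in 109 of 128 domains split in knockout (85.2%) and in 34 of 40 split in wild type (85.0%), with medians of 172 bp and 133.5 bp between the starts. The gap centre fell between the diverging starts in 76 of those 128 domains (59.4%) and in 26 of those 40 (65.0%). Fhod1, which diverges from the sodium-proton exchanger gene Slc9a5, is one case, and Git2, which diverges from the ubiquitin-binding protein gene Ankrd13a, is another.

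The promoters of the members were as rich in G and C as those of other peaks. Over 550 protein-coding start sites in domains split in knockout the median GC content was 62.3%, against 62.7% in the other wild-type peaks, and over 229 in domains split in wild type it was 62.0%, against 63.0% in the other Sun-/- peaks. The median over all 21263 coding promoters was 56.3%. GC content within the gap was taken only where a gap of at least 20 bp lay in a promoter window of 300 bases. In 214 such domains split in knockout the median was 63.2% in the gap and 62.7% in the rest of the window. It was lower in the gap in 105 and higher in 109. In 100 such domains split in wild type the median was 64.2% in the gap and 62.0% in the rest of the window. It was lower in the gap in 41 and higher in 58, with a median difference of 2.24 percentage points.

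The letters CCAAT, searched on both strands (ATTGG on the other), were in 44.9% of the promoters of domains split in knockout, against 35.2% in the other wild-type peaks and 38.2% of all promoters. They were in 43.2% of the promoters of domains split in wild type, against 34.8% in the other Sun-/- peaks. The order held for promoters of domains with starts on both strands (43.1% against 30.8% for knockout, 44.0% against 31.1% for wild type). H2az1 and Per1 had 3 such matches each, of which 2 lay in the gap, and both matches of Irs2 lay in the gap. The 1 match of H3f3a lay in the gap too, and Fhod1, Acap3, Arf1 and Git2 had no match. These promoters were chosen for a gap within the printed window, so nothing is read from where the matches lay. The GC box GGGCGG was in 67.5% of the promoters of domains split in knockout, against 69.2% in the other wild-type peaks and 46.2% of all promoters, and the PU.1 core GAGGAAG in 12.4%, against 13.2% and 13.6%. The letters TATAAA were in 5.09%, against 5.61% and 12.6%. For domains split in wild type GGGCGG was in 69.9%, against 69.6% in the other Sun-/- peaks, GAGGAAG in 12.2%, against 13.3%, and TATAAA in 8.30%, against 5.41%. The share with TATAAA was thus above that of the other peaks in this direction and below it in domains split in knockout. These shares rest on 229 and 550 start sites, no interval was taken for them, and nothing is read from this contrast.

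The strongest domains split in knockout held over 1000 tags in wild type, and their pieces are given in the order of their coordinates. The domain at Pbx2, Gpsm3 and Notch4, 8319 bp on chromosome 17 (34586371 to 34594689), had Sun-/- pieces of 333 and 879 tags, against 1685 tags in its wild-type peak. The forkhead factor gene Foxo3 had Sun-/- pieces of 861 and 182 tags, against 1465 in wild type, with a gap of 37 bp. Arid2, a subunit of the PBAF chromatin remodeller, had 264 and 532 tags in Sun-/- and 1261 in wild type. The gap lay over 500 bp from the nearest start site at Pbx2 and Foxo3. Bcl11a, a zinc-finger repressor, had Sun-/- pieces of 490 and 462 tags that were 9 bp apart, against 1229 in wild type. Actg1, which encodes cytoplasmic gamma-actin, had pieces of 338 and 425 tags that were 2 bp apart, against 1094. At Trib1, a pseudokinase gene, the pieces held 181 and 561 tags, against 1064. Fhod1 had 437 and 271 tags in Sun-/- and 1043 in wild type, and Acap3 had 223 and 534 in Sun-/- and 1012 in wild type.

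Wide gaps were rare. At Tpi1, a glycolytic enzyme gene, next to Spsb2 and Usp5 (chromosome 6, 124807616 to 124814758), the Sun-/- pieces of 343 and 311 tags were 1067 bp apart, against 1063 tags in the wild-type peak. At B2m, the light chain of MHC class I (chromosome 2, 122147649 to 122152525), pieces of 170 and 159 tags in Sun-/- were 1218 bp apart, against 481 tags in wild type. Its gap was centred 2425.5 bp downstream of the start site. At Olfml3, an extracellular matrix protein gene, pieces of 140 and 96 tags were 1151 bp apart, against 383 in wild type. Foxa2, a pioneer factor of endoderm, had Sun-/- pieces of 89 and 107 tags at 690 bp apart, against 290. Bhlhe41, a clock repressor gene, had pieces of 426 and 267 tags at 265 bp apart, against 1027 in wild type. Of the 19 domains split in knockout with a gap of at least 500 bp, 6 had one of at least 1000 bp.

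Domains in 3 pieces included Zcchc14 with Sun-/- pieces of 285, 78 and 111 tags, against 703 in wild type, and U2af2, a splicing factor gene, with 228, 60 and 137, against 628. The histone cluster at H2ac13, H2bc13 and H3c10 had pieces of 94, 125 and 112 tags in Sun-/-, against 444 in wild type, and how tags were placed among near-identical histone genes is not given in the sources used here. Hcfc1, a cofactor of SET1 and MLL complexes, had 77, 73 and 37 tags in Sun-/-, against 315 in wild type. In these 4 domains no piece of Sun-/- held as many tags as the wild-type peak. As each piece covered only a part of that peak, this follows largely from the rule.

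Domains split in wild type had their strongest member at Irs2 on chromosome 8 (11003148 to 11010104). Its Sun-/- peak had 1149 tags, against wild-type pieces of 1232 and 289 tags with a gap of 117 bp. Git2 and Ankrd13a had 801 tags in Sun-/-, against 409 and 570 in wild type. Zswim6 had 785 tags in Sun-/- and 773 and 420 in wild type. Ccnd2, which encodes cyclin D2, had 768 in Sun-/- and 340 and 464 in wild type. Cyth4, an exchange factor for Arf proteins, had 626 in Sun-/- and 251 and 616 in wild type. Gadd45g, a stress response gene, had 582 in Sun-/- and 183 and 674 in wild type, and Pde4a, a cyclic AMP phosphodiesterase gene, had 561 in Sun-/- and 336 and 214 in wild type at 363 bp apart.

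**Figure D4:**
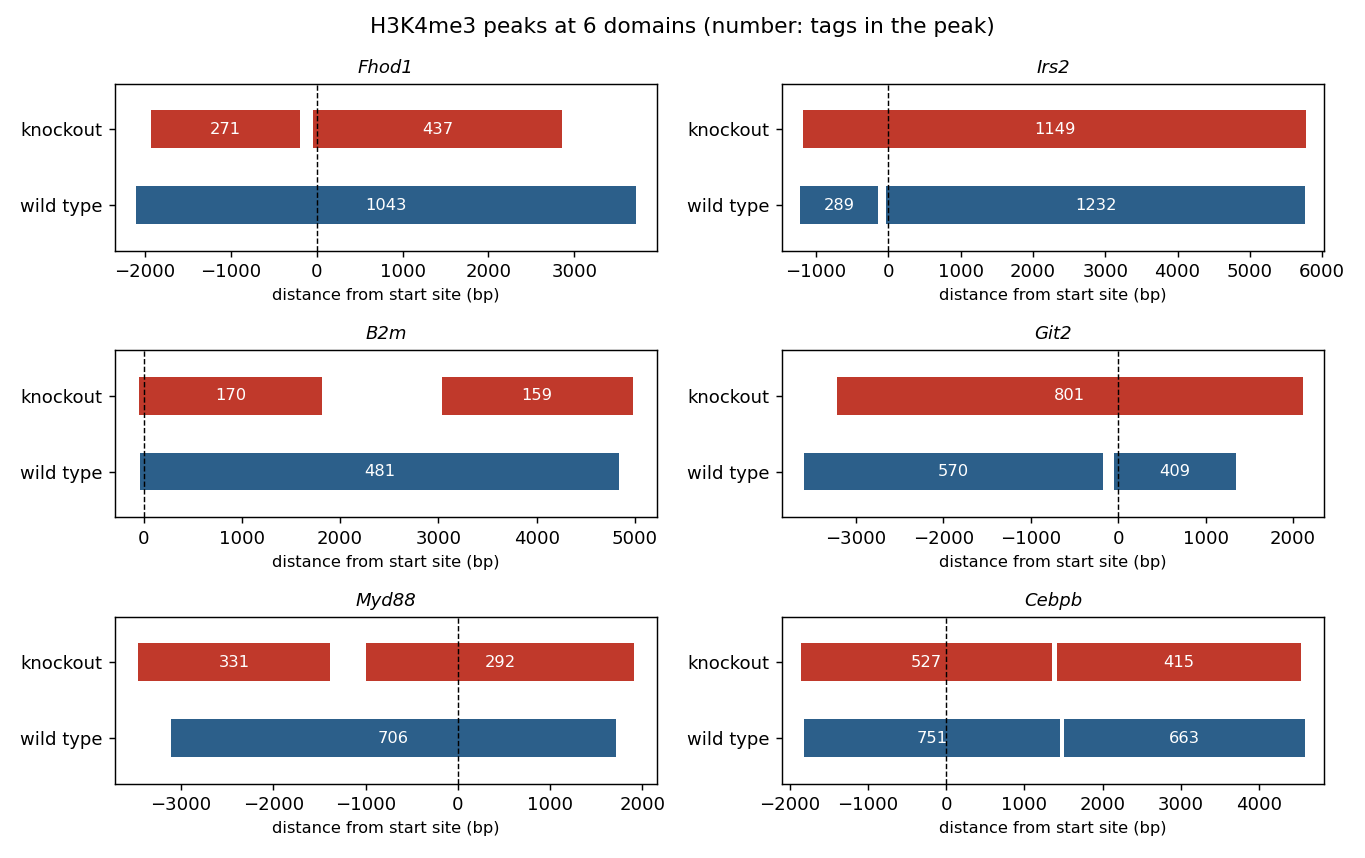
Extent of the H3K4me3 peaks at 6 domains (bars, Sun-/- above wild type) by distance from the gene's start site (bp, x axis, negative upstream), with the tags of each peak printed on it. Gaps sit at the start of Fhod1, Irs2 and Git2, while B2m has a gap of 1218 bp inside the gene and Cebpb has a gap in both genotypes.

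The summed pieces held fewer tags in Sun-/- than in wild type in both directions, as did undivided peaks. The log2 ratio of Sun-/- over wild-type tags, scaled to filtered tags, had a median of -0.38 in domains split in knockout and -0.38 in domains split in wild type. In 17114 pairs of 1 peak in each genotype it was -0.33 (SD across pairs 0.34). The ratio was above 0 in 101 domains split in knockout (15.9%) and in 59 split in wild type (16.3%). Being at least 2-fold higher in Sun-/- was seen in 18 domains split in knockout and in 2 split in wild type, where 0.321% of pairs were. Being at least 2-fold lower was seen in 10 split in knockout and in 54 split in wild type, where 1.68% of pairs were. All 18 and 52 of the 54 had a piece mostly outside the undivided peak, where the tags of the split genotype are summed over a longer stretch. With all pieces at least 50% inside, the median was -0.41 in domains split in knockout and -0.29 in domains split in wild type. The rule used the same peaks, so nothing is read from these counts.

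**Figure D5:**
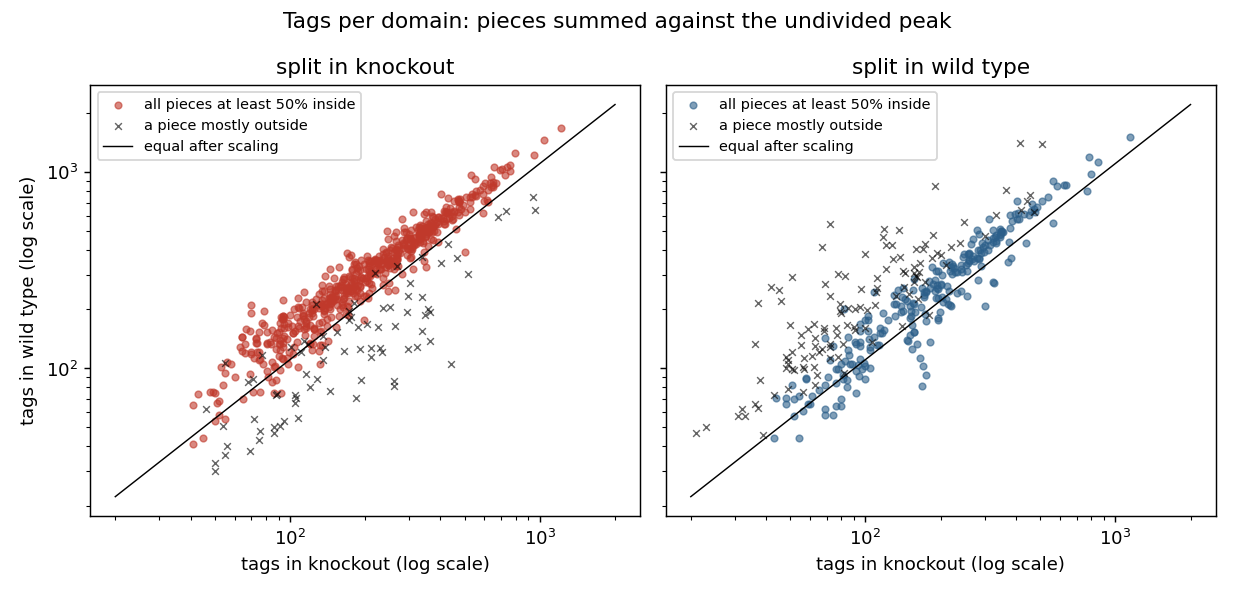
Tags in Sun-/- (x axis, log scale) against tags in wild type (y axis, log scale) for each domain split in knockout (left) and split in wild type (right), with the pieces summed and a line where the scaled values are equal. Most of the 555 and 243 domains with all pieces at least 50% inside (circles) lie above the line, and crosses are the 80 and 120 domains with a piece mostly outside, which are summed over unequal stretches.

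In some domains a piece lay mostly outside the undivided peak. All pieces lay at least 50% inside in 555 domains split in knockout (87.4%) and in 243 split in wild type (66.9%). A piece lay mostly outside in the other 80 split in knockout (12.6%) and 120 split in wild type (33.1%). The pieces spanned a median of 1.74 times the width of the undivided peak in the 80 and 1.88 times in the 120, so the tag ratio of these domains compares stretches of unequal length and is not read. In 47 of the 80 and in 48 of the 120 the outer piece met the next peak of the undivided genotype, so both genotypes had a gap, shifted in position. Cebpb, a transcription factor of myeloid cells, was a case in both directions, with peaks of 527 and 415 tags in Sun-/- and 751 and 663 in wild type. At Per1 the pieces of Sun-/- (104 and 364 tags) were 1538 bp apart, against 364 in wild type, and the one of 364 tags lay mostly outside. That piece was itself split in wild type, at the gap of 114 bp printed above for Per1. Both genotypes thus had a gap there, at different positions.

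Interferon response genes were among these domains. In the interferon list 4 of the 31 genes marked in both genotypes were split in knockout, and 1 was split in wild type. Mx1 and Mx2 are transcribed pseudogenes in the annotation used, and of the 29 coding genes 2 were split in knockout, where 4.70% of 13205 marked coding genes were, and 1 in wild type, where 2.03% were. With counts this small nothing is read from the list. All 4 had a piece mostly outside the wild-type peak. Mx1, an antiviral GTPase gene in other mouse strains, had Sun-/- pieces of 265 and 73 tags over 3459 bp, against 155 tags over 2021 bp in wild type. Mx2, its homologue, had 108 and 407 in Sun-/-, against 303 in wild type. Oas2, a sensor of double-stranded RNA, had 181 and 142 in Sun-/- over 3216 bp, against 128 over 1354 bp in wild type. Trim21, an antibody receptor of the cytosol, had 120 and 91 over 2575 bp in Sun-/-, against 115 over 775 bp in wild type. The marked stretch was longer in Sun-/- at these 4 genes, 4294 bp in Sun-/- and 3245 bp in wild type at Mx2. A piece mostly outside the wild-type peak lengthens the stretch, so nothing is read from this. The list was drawn up with earlier results known. Ifnar2, a subunit of the type I interferon receptor, was split in wild type, with 248 tags in Sun-/-, against 420 and 138 in wild type, and its outer piece met a further Sun-/- peak.

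Over the 471 listed coding genes marked in both genotypes, 28 (5.94%) were split in knockout and 17 (3.61%) were split in wild type, against 4.70% and 2.03% of all marked coding genes. The counts below are to be read against those shares. Each list is small, and none was tested against them. Of pattern recognition genes 3 of 38 were split in knockout and 1 in wild type. Myd88, the adaptor of Toll-like receptors, had 292 and 331 tags in Sun-/- that were 390 bp apart, against 706 in wild type, with a scaled log2 ratio of -0.03 (-0.19 to 0.13). Cgas, the sensor of cytosolic DNA, had 73 and 73 in Sun-/-, against 183. Among inflammatory genes 2 of 23 were split in knockout and none in wild type. Ier3 had 165 and 185 tags in Sun-/-, against 630, and Relb 92 and 164, against 364. Macrophage identity genes had 1 of 35 split in knockout and 3 in wild type, where Trem2, a lipid receptor, had 313 tags in Sun-/-, against 230 and 349 in wild type, and Aif1 had 281 in Sun-/-, against 127 and 155.

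Actin and adhesion genes had 3 of 40 split in knockout and 2 in wild type. Vcl, which encodes vinculin, had 70 and 293 tags in Sun-/-, against 502, and Lcp1, the leukocyte plastin gene, had 85 and 38, against 201. Arpc5, a subunit of the Arp2/3 complex, had 308 in Sun-/-, against 163 and 241 in wild type. Lysosome and endocytosis genes had 4 of 32 split in knockout and none in wild type, with Cltc, the clathrin heavy chain, at 238 and 95 tags in Sun-/-, against 496, and Tfe3, a lysosome regulator, at 122 and 181, against 463. Histone genes had 3 of 23 split in knockout (13.0%) and 4 in wild type (17.4%). Of those 4, H3c1 and H4c1 lay at the same domain, so the genes are not separate cases. H2az1 had 88 and 241 in Sun-/-, against 528, and H3f3a had 433 in Sun-/-, against 310 and 304 in wild type. Klf4, of the immediate early list (1 of 25 split in knockout and none in wild type), had 413 and 117 tags in Sun-/-, against 965. Of the H3K4 methylation machinery 1 of 26 was split in each direction, and Wdr5, its shared core subunit, had 286 in Sun-/-, against 147 and 340 in wild type. None of 22 nuclear envelope genes was split in either direction, a count that such small shares of all genes would also give. Developmental regulators had 2 of 46 split in knockout and 1 in wild type. Transcription and RNA processing genes had 3 of 32 split in knockout and none in wild type. Antigen presentation genes had 1 of 16 split in knockout and none in wild type. Small GTPase and G protein genes had 1 of 28 split in each direction. The one of the last list split in knockout was Arf1, with 312 and 110 tags in Sun-/-, against 666 in wild type. Of marker genes of mesothelial, T and NK, B, mast and eosinophil, and dendritic cells, 4, 6, 3, 2 and 4 were marked in both genotypes, and none was split. No neutrophil marker was marked in both.

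An H3K9me3 peak in either genotype overlapped 125 of 635 domains split in knockout (19.7%), against 24.2% of the other wild-type peaks with a partner, and 73 of 363 split in wild type (20.1%), against 23.8% of the other Sun-/- peaks. At like width the share was lower for domains split in knockout in 7 of 7 classes, for example 10.8% against 28.8% between 1500 and 2000 bp. For domains split in wild type it was lower in 5 of 7 classes and higher in 2. Tags per kb were also lower in split domains of like width, and its part in this was not tested. Many of these H3K9me3 peaks were weak. One of score 100 or more was found in 33 of the 125 domains split in knockout and in 20 of the 73 split in wild type. The share of the other peaks was not taken at that score, so whether the contrast holds there is not known. The gap itself held an H3K9me3 peak in 5 domains split in knockout in each genotype, and in 3 in Sun-/- and 2 in wild type among those split in wild type.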

How the data were processed

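ChIP-seq of H3K4me3 and H3K9me3 was done on Sun-/- and wild-type macrophages with 1 library per mark and genotype. CASAVA 1.4, Bowtie 0.12.8, MACS 1.4.2 and DiffBind, with build mm10, were named per the submitters' processing notes. Each deposited file was a peak list of 1 library, called without a control at a p limit of 1.00e-05, with the genome size set to 1.87e+09, the band width to 300 and the background to at most 10000 bp around a peak, per the file headers. Per peak, the deposited lists give positions in bp, a count of tags, a fold enrichment (a linear ratio) and a score of -10 times log10 of p.

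Peaks were compared by overlap of at least 1 bp. Tag ratios were scaled to filtered tags, with exact conditional binomial intervals, and undivided pairs were peaks, 1 in each genotype, that covered at least 50% of each other and of which one had at least 50 tags. Shares have Clopper-Pearson 95% intervals. Depth limits the precision of each tag count, and intervals cover counting error only. No test compared the genotypes, each being 1 library. Genes and promoters came from RefSeq tables of GRCm38.p6, with 21887 protein-coding genes, and a gene was marked where a peak lay within 1000 bp of either end. The overlap was tested on simulated data.

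The named domains were the 10 with most tags per direction, up to 5 each with most pieces, the widest gap and the most even pieces, and up to 4 per gene list. Not every one is named. The members, rules and gene lists were chosen with earlier results of these data known. Intervals came from scipy 1.17.1, tables from pandas 2.3.3 and numpy 2.4.6 under Python 3.11.15, and plots from matplotlib 3.10.9. Alternatives were a stricter score, joined peaks, gap and overlap minimums, other gene windows and other scalings.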

Additional observations from a re-analysis of the deposited data

How the results depend on the processing

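The count of domains split in knockout, 635, was 225 with pieces of score 100 or more, 84 with peaks under 500 bp apart joined, 50 with peaks under 1000 bp apart joined and 19 with a gap of at least 500 bp. For domains split in wild type, 363 in all, these counts were 145, 35, 26 and 8. With a gap wider than the fragment size, an alternative chosen after seeing the data, they were 121 and 47. With pieces at least 50% inside they were 555 and 243, and with equal numbers of peaks 632 and 308. The share of domains split in knockout at a coding gene end was 74.0%, and 70.4% with a window of 500 bp. The share with H3K9me3 was 5.20% in domains split in knockout and 5.51% in those split in wild type with H3K9me3 peaks of score 100 or more. It was not taken for the other peaks at that score. The median log2 tag ratio was -0.28 in domains split in knockout and -0.27 in those split in wild type when scaled to library totals, and -0.05 in both after centring on the pairs. No paired analysis was possible because each group had 1 library, and for the same reason no library could be left out. Peak lists hold only called peaks, so tags inside a gap were not measured, and the number of members rests on how the caller breaks a domain.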

Other observations

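A domain split in knockout and a domain split in wild type lay at the ends of the same gene for 40 protein-coding genes. That is 0.303% of the 13205 marked in both genotypes, where 4.70% were split in knockout and 2.03% in wild type. In 51 domains of each direction a piece was itself the undivided peak of a domain split the other way. How many of the 40 genes rest on such domains was not counted. Ly96, the partner of Toll-like receptor 4 in sensing lipopolysaccharide, was a case where each genotype had 2 peaks, with the gap shifted in position. Its Sun-/- peaks held 55 and 36 tags, and its wild-type peaks held 97 and 51. The wild-type peak of 51 tags met both Sun-/- peaks, and the Sun-/- peak of 55 tags met both wild-type peaks. Ribosomal protein genes had 1 of 45 split in knockout and 3 split in wild type. Rplp2 had 136 and 76 tags in Sun-/-, against 269 in wild type, while Rpl37 had 242 in Sun-/-, against 101 and 235 in wild type.

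The domain at A530032D15Rik (chromosome 1, 85108479 to 85112627), a gene of the Sp100 repeat cluster, was split in wild type with 382 H3K4me3 tags in Sun-/-, against 181 and 184 in wild type at 726 bp apart. H3K9me3 peaks there held 307 tags in Sun-/-, against 401 in wild type. How tags were placed among copies of this repeated gene is not given in the sources used here.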
